A study of Homo sapiens with 4 samples.

Results

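The nuclear genes of the respiratory chain were examined in ChIP-seq peak lists of wild-type HAP1 cells. Genes were taken by symbol from the protein-coding genes of GENCODE release 44 on GRCh37, the same assembly as hg19. Complex I was represented by symbols that begin with NDUFA, NDUFB, NDUFC, NDUFS or NDUFV, complex II by SDHA to SDHD, complex III by UQCR, complex IV by COX4I, COX5, COX6, COX7 or COX8, and complex V by ATP5. This rule found 98 of the 20162 protein-coding genes on chromosomes 1 to 22, X and Y, with 46 genes for complex I, 4 for complex II, 9 for complex III, 19 for complex IV and 20 for complex V. The genes include 8 assembly factors of complex I (the NDUFAF genes), the readthrough genes NDUFC2-KCTD14 and ATP5MF-PTCD1, and 9 paralogs that are restricted to certain tissues or conditions or are intronless copies. NDUFA4, once counted to complex I, is a subunit of complex IV and was grouped there with its paralog NDUFA4L2. Subunits encoded by mitochondrial DNA, cytochrome c and cytochrome c1 are outside the rule.

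The respiratory chain of the inner mitochondrial membrane passes electrons from NADH and succinate to oxygen through complexes I to IV and pumps protons, and complex V uses the proton gradient to make ATP. Most of its subunits are encoded in the nucleus, made by cytosolic ribosomes and imported, and most of their genes are active in almost every cell type. Some subunits of complex IV exist as isoforms that replace the common form in heart, skeletal muscle, lung or testis.

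HAP1 is a human line that was obtained from the leukaemia line KBM-7 and is haploid at early passage. Chromatin of unedited HAP1 cells was precipitated with antibodies against the transcription factor MYC or against H3K27ac, an acetylation of histone H3 at active enhancers and promoters. Input served as the control of MYC, and rabbit IgG as that of H3K27ac. Each of these 4 samples is 1 library, so that there are no replicates, no value has an error, and no difference was tested.

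The deposited lists hold 1723 MYC peaks and 87087 H3K27ac peaks, each with a fold enrichment over the control and a −log10 q. Peak lists carry no read depth, and the mapped reads per library that the paper gives were not used here. A gene without a peak is one where no signal passed the threshold of the peak caller. Fold enrichments of MYC and H3K27ac rest on different controls and were not compared with each other. Marker genes were read as a check of the cells. ACTB, GAPDH and EEF1A1, which are active in nearly all cells, had H3K27ac summits within 1 kb of their transcription start site (TSS) with fold enrichments of 18.5, 16.4 and 17.1. Of 6 blood lineage genes, 1 had such a summit, namely the myeloid regulator SPI1 with a fold enrichment of 5.00, while PTPRC, GATA1, CD34 and LYZ had no H3K27ac peak in the gene at all and ITGAM had 4 away from its TSS. The mesenchymal genes VIM and FN1 had no H3K27ac summit within 1 kb of the TSS, but VIM had 2 peaks in its region and FN1 had 0.

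MYC peaks at 4 of the complex I genes contained the E-box CACGTG, the motif that MYC binds together with MAX. The plus strand of GRCh37 around each E-box is shown with the motif in capitals, because the other 4 MYC peaks of the respiratory chain held no CACGTG.
NDUFA11, chr19:5903916-5903945: ggaagagagtagCACGTGcatccccaggcc
NDUFA7, chr19:8386362-8386391: ctctccccgaagCACGTGactcctctccgc
NDUFV3, chr21:44299169-44299198: tcagcgtcgcccCACGTGctctacctaccc
NDUFS1, chr2:207024829-207024858: cggggccggggcCACGTGgcgcagcgtgtc
The E-box was 37 bp from the peak summit at NDUFS1, 60 bp at NDUFA7, 64 bp at NDUFA11 and 419 bp at NDUFV3.

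H3K27ac was present at nearly the whole respiratory chain, and MYC at a small share of it. An H3K27ac peak overlapped the gene body or the 2 kb upstream of the gene's 5′ end in 91 of the 98 genes (92.9%), against 75.6% of all protein-coding genes. A MYC peak did so in 8 of 98 (8.16%), against 6.36% of all protein-coding genes, a share near the background. Respiratory chain genes are short, with a median length of 12481 bp compared to 27220 bp over all protein-coding genes, so a count of peaks over the gene body covers less DNA for them. When instead the peak summit had to lie within 1 kb of the TSS of the canonical transcript, H3K27ac was counted for 90 genes (91.8%, against 64% of all protein-coding genes) and MYC for 5 (5.1%, against 3.58%). The canonical TSS itself was covered by an H3K27ac peak in 84 genes (85.7%, against 56.9%). For NDUFB6, which has no canonical transcript on this build, the 5′ end of the gene was used.

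Other groups of widely active genes were set beside these counts. Of 78 mitochondrial ribosomal protein genes, 78 had an H3K27ac peak and 8 (10.3%) a MYC peak. The proteasome subunit genes had an H3K27ac peak in 49 of 50 and a MYC peak in 4 (8.0%). The 87 cytosolic ribosomal protein genes differed in MYC and not in H3K27ac, with an H3K27ac peak in 83 (95.4%) and a MYC peak in 69 (79.3%). The share of respiratory chain genes with a MYC peak was thus in the range of the mitochondrial ribosome and the proteasome, and none of these differences was tested.

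**Figure D1:**
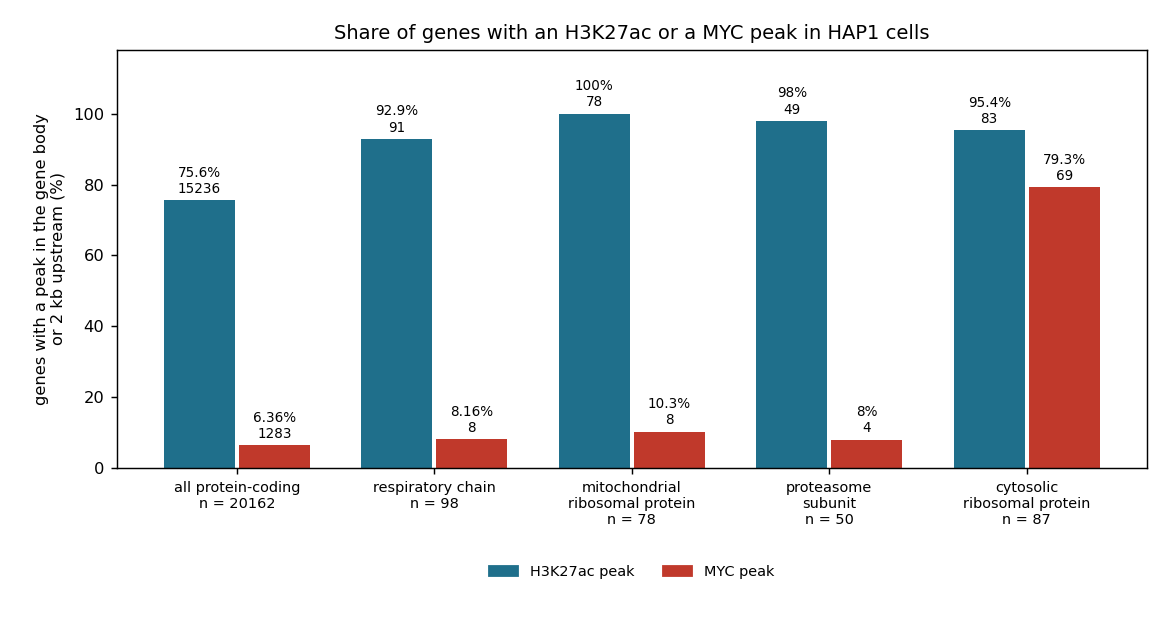
Percentage of genes (vertical axis) with an H3K27ac peak or a MYC peak in the gene body or 2 kb upstream, for all protein-coding genes and 4 gene lists, with the number of genes with a peak above each bar. The respiratory chain genes reach 92.9% for H3K27ac and 8.16% for MYC, and the cytosolic ribosomal protein genes are the list with a high MYC share (79.3%).

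By complex, an H3K27ac peak was present at 46 of 46 genes of complex I, 4 of 4 of complex II, 8 of 9 of complex III, 14 of 19 of complex IV and 19 of 20 of complex V. The 7 genes without one were UQCRHL, COX4I2, COX6A2, COX7A1, COX7B2, COX8C and ATP5MGL, and each of them is among the 9 paralogs. All 89 genes other than these paralogs had an H3K27ac peak in the region and also a summit within 1 kb of the canonical TSS. MYC peaks were found at 4 genes of complex I (8.7%), 1 of complex IV (5.26%) and 3 of complex V (15%). None was found at the 13 genes of complexes II and III. The share over all protein-coding genes was 6.36%, and differences between complexes were not tested.

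The height of the H3K27ac signal at the promoter was taken as the highest fold enrichment over IgG of the peaks with a summit within 1 kb of the canonical TSS. Over the 90 respiratory chain genes with such a summit it ranged from 5.07 to 35.7 with a median of 18.02, and the median over the 12910 protein-coding genes with one was 17.6. Of the 90 genes, 45 lay above this all-gene median and 45 at or below it. The respiratory chain promoters were therefore marked more often than promoters in general, and where they were marked, the fold enrichment was near the middle of all marked promoters. The difference between the medians changed direction with the choice of summit. With the summit nearest to the TSS in place of the highest, the median was 16.4 for the respiratory chain and 17.0 for all protein-coding genes.

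Among the complexes, the median promoter fold enrichment was 18.02 for complex I, 13.1 for complex II, 21.5 for complex III, 13.4 for complex IV and 20.4 for complex V. The ranges of the complexes overlapped widely, from 6.01 to 34.8 for complex I, 5.07 to 22.6 for complex IV and 9.19 to 35.7 for complex V. Within complex I, the 7 core subunits, which include the carriers of the flavin and the iron–sulfur clusters, had a median of 19.6, the 30 accessory subunits 17.6 and the 8 assembly factors 16.5. In complex V the 5 subunits of the F1 head and central stalk, where ATP is formed, had a median of 20.4, and so had ATP5F1A itself. NDUFC2-KCTD14 and ATP5MF-PTCD1 share their promoter peak with NDUFC2 (fold enrichment 10.2) and ATP5MF (27.03), so these peaks were counted for both genes of each pair.

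The highest promoter fold enrichment was found at ATP5PD, which encodes subunit d of the peripheral stalk that holds the F1 head of ATP synthase in place. Its peak at chr17 had a value of 35.7, above that of 95.0% of all marked promoters, and its summit lay 403 bp upstream of the TSS, on the side of the divergent neighbour KCTD2. NDUFAF3, an assembly factor of the early complex I intermediate that contains the quinone site, followed with 34.8. NDUFAF5, which hydroxylates an arginine of NDUFS7 during assembly, had 34.3, and NDUFS7 itself, a core subunit with the iron–sulfur cluster next to the quinone site, also had 34.3. NDUFS8, the core subunit that holds the preceding clusters of the electron path, had 33.2. Of these 5 genes, 4 belong to complex I as subunits or assembly factors, as do 46 of all 98 genes. The MYC list held no peak at any of the 5. It also held none at 90 of the 98 genes and at 18879 of the 20162 protein-coding genes. Outside 1 kb of the canonical TSS, an H3K27ac peak in the region of NDUFA2 reached 40.4, while the promoter value of NDUFA2 was 16.6.

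The lowest value among marked promoters was that of NDUFA4, a complex IV subunit of all tissues. Its single H3K27ac peak, chr7:10979134-10980572, had a fold enrichment of 5.07 and a −log10 q of 25.2, although it covered the TSS and was 1439 bp wide. NDUFB6, an accessory subunit of the membrane arm of complex I, had 6.01, COX6B2, the testis form of a complex IV subunit, had 6.23, and NDUFA9, an accessory subunit close to the quinone site, had 6.25. SDHB, the iron–sulfur subunit of succinate dehydrogenase, was next with 7.77. Its partner SDHA, the flavoprotein that oxidises succinate, had 24.9, so that both catalytic subunits of a single enzyme stood at opposite sides of the median. The membrane anchors SDHC and SDHD of the same enzyme had 9.54 and 16.6. In all, 9 of the 90 marked promoters were below 10. Among the marked promoters of all protein-coding genes, 18.3% lay below the 9.54 of SDHC and 20.1% below the 10.2 of UQCR10. The −log10 q of the strongest promoter peak was at least 10 in 90 of 90 genes, and the share over all marked promoters is not given here.

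**Figure D2:**
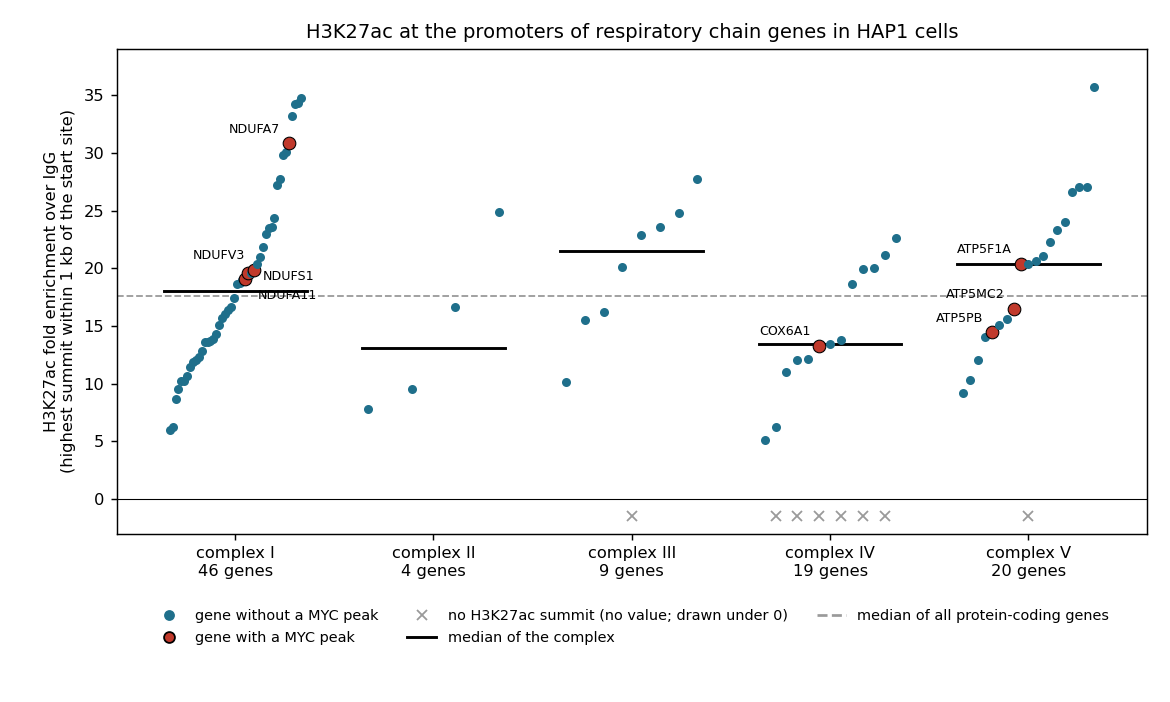
H3K27ac fold enrichment over IgG at the promoter (vertical axis, highest summit within 1 kb of the TSS) for each gene of the 5 complexes, ordered by value within a complex, with genes that have a MYC peak in red, complex medians as black lines and genes without a summit as crosses under 0. Values run from 5.07 (NDUFA4) to 35.7 (ATP5PD), 6 of the 8 genes without a summit belong to complex IV, and the genes with a MYC peak lie between 13.3 and 30.8.

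The strongest H3K27ac summit lay downstream of the TSS in 72 of the 90 genes (80%) and upstream in 18, compared to 76.7% downstream over all protein-coding genes with a summit. The median position was 158 bp downstream. The median width of this peak was 1102 bp, from 324 bp at NDUFAF1 to 5381 bp at UQCRH, and 1135 bp over all protein-coding genes. At UQCRH, the hinge protein of complex III, the wide peak is shared with LRRC41 on the opposite strand. In 74 genes (75.5%, against 58.8% of all protein-coding genes) the region held more than 1 H3K27ac peak, with a maximum of 12 at the assembly factor gene NDUFAF6. The TSS was left uncovered in the 9 paralogs and in NDUFB6, NDUFS4, NDUFAF4, COX6C and COX7B, the last 5 of which are named after their values were seen.

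**Figure D3:**
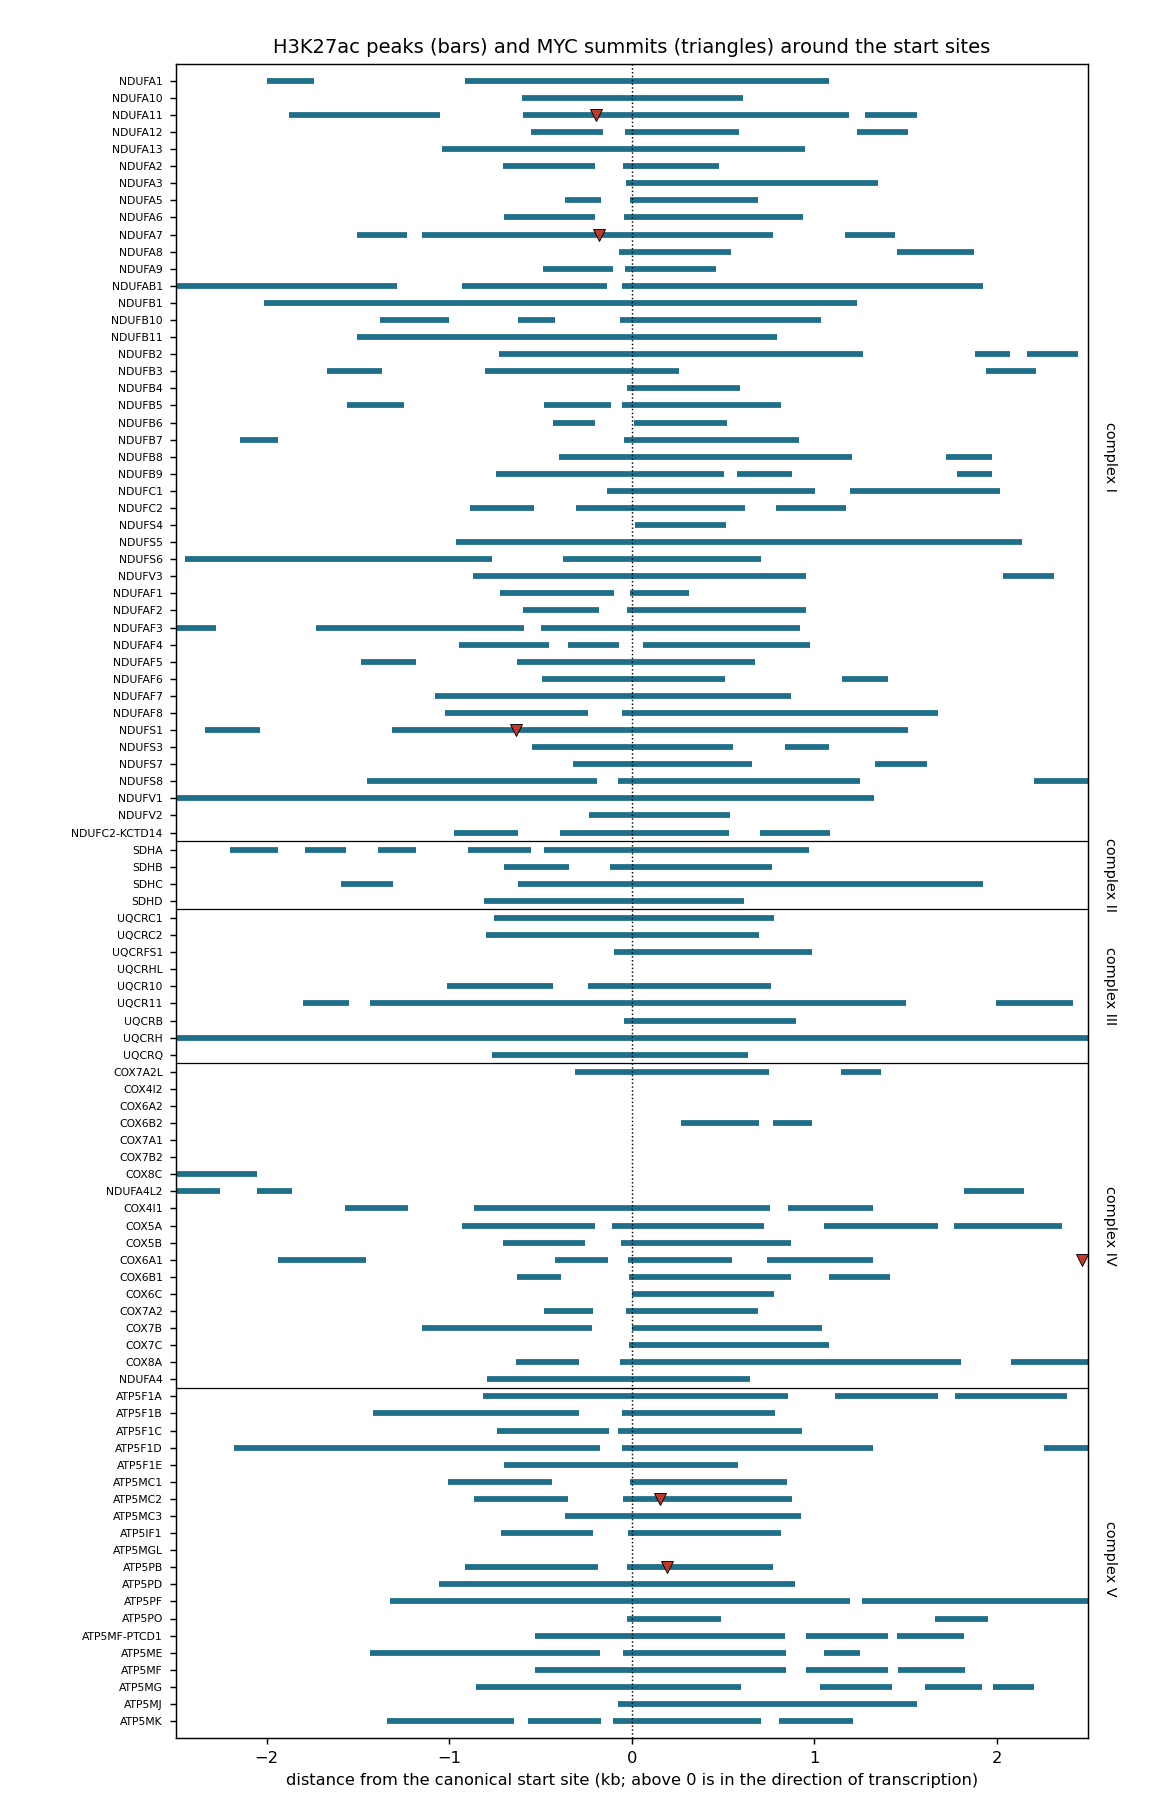
Positions of H3K27ac peaks (bars) and MYC summits (triangles) from 2.5 kb before to 2.5 kb after the canonical TSS (horizontal axis, kb, transcription to the right) for 97 of the 98 genes (rows), grouped by complex. Bars cover the TSS in 83 rows, the rows of UQCRHL, COX4I2, COX6A2, COX7A1, COX7B2 and ATP5MGL hold no bar, and the MYC summits of NDUFV3 and ATP5F1A lie outside the range shown. The gene that is not drawn has a covered TSS, and for NDUFB6 the 5′ end of the gene is used.

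The 8 MYC peaks of the respiratory chain were of average height for the list, with a median fold enrichment over input of 5.82 (3.64 to 7.73) compared to 5.57 over all 1723 MYC peaks. H3K27ac overlapped 6 of the 8 (75%). Since these peaks were chosen for their place in gene regions, they are set beside the 1209 MYC peaks in the region of any protein-coding gene, of which H3K27ac overlapped 704 (58.2%). In the 6 the H3K27ac peak covered 100% of the MYC peak. Of the 8 summits, 6 (75%) were within 1 kb of a protein-coding TSS, against 52% of these 1209 peaks. The nearest protein-coding TSS was that of the respiratory chain gene in 3 of the 8 cases and that of another gene in 5. COX6A1 is among the 5 by a small margin, with 2379 bp from the summit to the other TSS and 2464 bp to its own.

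The 3 summits whose nearest protein-coding TSS was that of the respiratory chain gene belonged to NDUFA11, ATP5MC2 and ATP5PB. NDUFA11 encodes an accessory subunit in the membrane arm of complex I. Its MYC peak, chr19:5903909-5904063, had a fold enrichment of 5.398 and a −log10 q of 6.51, and the summit was 196 bp upstream of the canonical TSS in an exon of another transcript of the gene, inside an H3K27ac peak of 19.1. ATP5MC2 is among the 3 genes for subunit c, which forms the rotating ring of ATP synthase. A MYC peak at chr12:54069676-54069834 with a fold enrichment of 4.22 had its summit in the first intron, 152 bp downstream of the TSS, and the H3K27ac peak over it had 16.4. ATP5PB encodes subunit b of the peripheral stalk. The peak there, chr1:111992170-111992434, was the weakest of the 8, with a fold enrichment of 3.64 and a −log10 q of 2.25 (rank 1475 of 1723), and its summit was in the first intron, 195 bp from the TSS. ATP5MC1 and ATP5MC3, the other genes for subunit c, had no MYC peak and H3K27ac fold enrichments of 21.1 and 10.3.

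At NDUFA7, NDUFS1 and NDUFV3 the MYC summit was closer to the TSS of a neighbour on the opposite strand. NDUFA7, an accessory subunit of the matrix arm, shares its promoter with RPS28, a protein of the small cytosolic ribosomal subunit. The MYC peak at chr19:8386330-8386501 had a fold enrichment of 4.39 and its summit was 59 bp from the TSS of RPS28, in an RPS28 exon, and 180 bp from that of NDUFA7. NDUFS1, the largest core subunit of complex I, lies opposite EEF1B2, a guanine nucleotide exchange factor of translation elongation. The peak at chr2:207024658-207024915, with a fold enrichment of 7.12 and a −log10 q of 11.5, had its summit 185 bp from the TSS of EEF1B2 and 636 bp from that of NDUFS1. NDUFV3 is an accessory subunit of the NADH-binding module. Its MYC peak, chr21:44299157-44299729, was the highest of the 8 with 7.73 and a −log10 q of 13.5, but the summit was 44 bp from the TSS of WDR4, a subunit of a tRNA methyltransferase, 149 bp from the annotated 5′ end of NDUFV3 and 13814 bp upstream of its canonical TSS. The H3K27ac fold enrichment at the MYC peak was 30.8 at NDUFA7, 19.6 at NDUFS1 and 13.5 at the WDR4 side of NDUFV3, whose canonical promoter had 19.8. A promoter of this kind cannot be divided between its genes with peak lists alone.

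The remaining MYC peaks, at COX6A1 and ATP5F1A, shared no base with an H3K27ac peak. COX6A1 is the common form of complex IV subunit VIa. The peak at chr12:120878311-120878465, with a fold enrichment of 7.67 and a −log10 q of 11.2, had its summit in the 3′ untranslated part of the last exon, 2464 bp downstream of the TSS and with 1075 bp to the nearest H3K27ac peak. The protein-coding TSS nearest to this summit, at 2379 bp, was that of a gene listed as ENSG00000111780. ATP5F1A encodes the alpha subunit of the F1 head. Its MYC peak, chr18:43664143-43664297, with 6.23 and a −log10 q of 5.82, was also in the 3′ untranslated part of the last exon, 14051 bp downstream of the TSS and with 8522 bp to the nearest H3K27ac peak. Neither peak held CACGTG. Both promoters had H3K27ac peaks of their own without MYC, with fold enrichments of 13.3 for COX6A1 and 20.4 for ATP5F1A.

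These last-exon peaks were also the ones with near-identical copies elsewhere in the genome. The 201 bp around the COX6A1 summit matched the processed pseudogene COX6A1P2 at chr6:37012905-37013105 with 99.5% identity. Around the ATP5F1A summit, 195 bp matched ATP5F1AP2 on chromosome 2 with 95.4% identity and ATP5A1P5 on chromosome 9 with 93.5%. The other 6 summits had no copy that reached 90% identity across 80% of the window. The contribution of reads from such copies to the peaks was not tested.

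Among the 8 MYC peaks, that of NDUFS1 had CACGTG no more than 50 bp from its summit (1 of 8, 12.5%), against 12.3% of all MYC peaks. Anywhere in the peak it was present in 4 of 8, those of NDUFA11, NDUFA7, NDUFV3 and NDUFS1, against 22.6% of all MYC peaks. The peaks of ATP5MC2 and ATP5PB held none, although the ATP5PB promoter has a CACGTG 223 bp upstream of the TSS. With a −log10 q of at least 10, 3 of the 8 peaks were left (37.5%), against 34.1% of all MYC peaks. These were the peaks of NDUFV3, NDUFS1 and COX6A1, and none of these had its summit nearest to the TSS of the respiratory chain gene. The COX6A1 summit was in the last exon of COX6A1 itself, 2464 bp from its own TSS and 2379 bp from the other. These 8 genes included, a MYC summit lay within 100 kb of the TSS for 21 of the 98 genes (21.4%), against 21.2% of all protein-coding genes. The shares of all MYC peaks given here are over 1723 peaks, and not over the 1209 in the region of a protein-coding gene.

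The isoform pairs separated marked from unmarked genes within the respiratory chain. Of the 9 widely expressed genes of the pairs, 9 had an H3K27ac summit within 1 kb of the TSS, with fold enrichments from 5.07 to 23.6. Of their 9 paralogs, 2 had an H3K27ac peak anywhere in the region and 1 had a summit within 1 kb of the TSS. No MYC peak was present at any paralog, and 1 was present among the widely expressed genes, at COX6A1.

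COX4I1, the common form of subunit IV, had a promoter fold enrichment of 18.6 from a summit on the side of its divergent neighbour EMC8, whereas COX4I2, the form of lung, had no peak and the nearest H3K27ac summit was 24014 bp from its TSS. For subunit VIa, COX6A1 had 13.3, and at COX6A2, the form of heart and skeletal muscle, the nearest summit was 14403 bp away. For subunit VIIa, COX7A2 had 12.1, and at the heart and muscle form COX7A1 the nearest summit was 11384 bp away. COX7B on the X chromosome had 19.9, while its testis paralog COX7B2 was 184802 bp from the nearest summit, in a gene of 174419 bp without a single H3K27ac peak. COX8A had 10.97, and at the testis form COX8C a summit lay 2253 bp away, outside the 2 kb upstream part.

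The intronless copies were also unmarked. UQCRH had a promoter fold enrichment of 23.6 and its copy UQCRHL had no H3K27ac peak in the region, with the nearest summit at 7490 bp. ATP5MG, subunit g of ATP synthase, had 15.1, and the copy ATP5MGL had none, with the nearest summit at 4880 bp.

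COX6B2 and NDUFA4L2 were the paralogs with H3K27ac peaks. COX6B2, the testis form of subunit VIb, had 4 peaks in the region. The peak nearest to the TSS, chr19:55865390-55865820, reached 6.23 at 568 bp downstream, and the strongest, 12.3, was at the end of the gene, 5264 bp downstream. COX6B1, the common form, had 13.8 at 147 bp. NDUFA4L2 is induced under low oxygen and can replace NDUFA4. It had 3 peaks, none within 1 kb of the canonical TSS. The strongest, chr12:57633145-57634615, had a fold enrichment of 13.3 and a summit 3232 bp upstream of the canonical TSS, inside the annotated gene body, which extends to 57634498. This was above the fold enrichment of 5.07 at the promoter of NDUFA4, so that the order within this pair depends on whether the peak is counted. With a summit within 1 kb of any annotated TSS of the gene, a rule chosen after seeing the data, 91 in place of 90 genes were counted for H3K27ac and 7 in place of 5 for MYC.

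**Figure D4:**
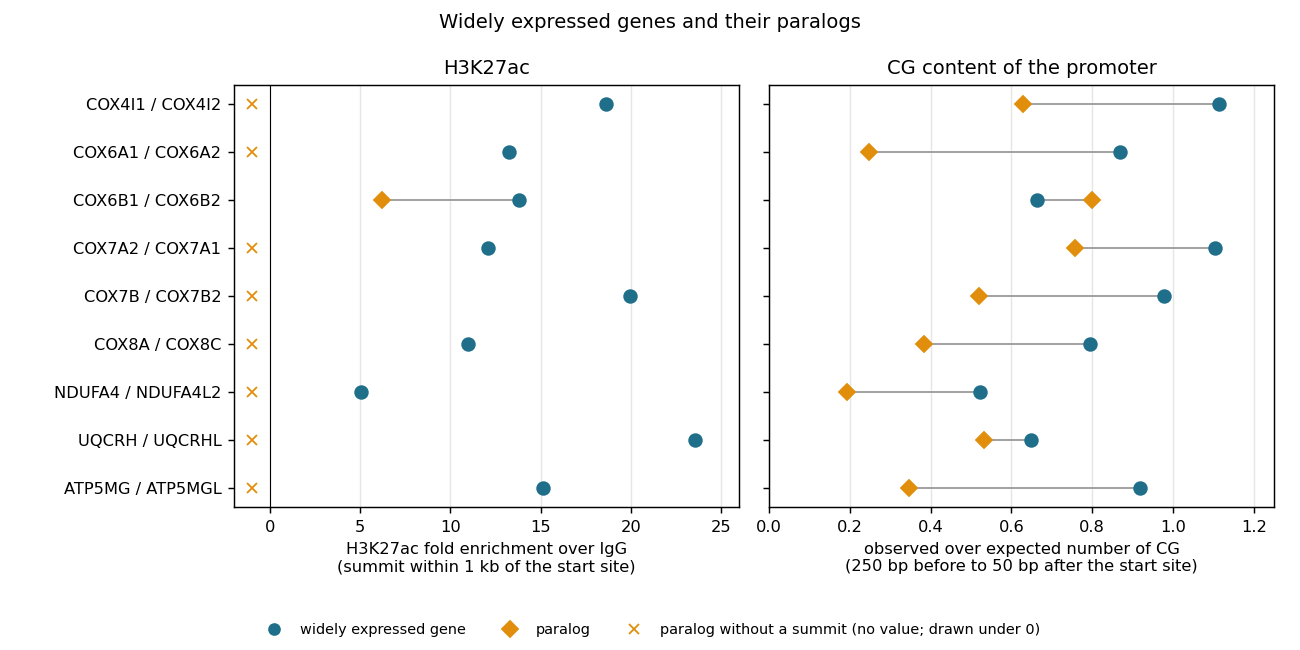
H3K27ac fold enrichment over IgG within 1 kb of the TSS (left, horizontal axis) and ratio of observed to expected CG in the promoter window (right) for 9 pairs (rows) of a widely expressed gene (circles) and its paralog (diamonds; crosses where no summit was present). The 9 widely expressed genes have values from 5.07 to 23.6, COX6B2 is the paralog with a value (6.23), and the CG ratio is lower in the paralog in each pair except COX6B1/COX6B2.

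Promoter sequence differed along the same line. In the 300 bp from 250 bp before to 50 bp after the TSS, the ratio of observed to expected CG dinucleotides had a median of 0.844 over the 98 genes and 0.773 over all protein-coding genes. The 9 widely expressed genes of the pairs had a median of 0.868 and the 9 paralogs 0.520. Single values ran from 0.523 (NDUFA4) to 1.12 (COX4I1) in the widely expressed genes and from 0.194 (NDUFA4L2) to 0.799 (COX6B2) in the paralogs. COX6B2, with the highest ratio of the paralogs, was also the paralog with an H3K27ac summit near its TSS. COX7A1 had a ratio of 0.758 and no peak, so a high ratio was not always accompanied by the mark.

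The 100 bp before the TSS of COX8A and its testis paralog COX8C, and of NDUFA4, the marked promoter with the lowest fold enrichment, are given on the strand of the gene with CG in capitals. These windows overlap no annotated exon.
COX8A, chr11:63741992-63742091: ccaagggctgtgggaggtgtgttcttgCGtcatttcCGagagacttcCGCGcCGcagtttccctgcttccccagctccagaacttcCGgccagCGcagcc
COX8C, chr14:93813428-93813527: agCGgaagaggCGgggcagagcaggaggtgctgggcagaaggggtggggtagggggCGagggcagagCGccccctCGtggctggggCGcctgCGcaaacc
NDUFA4, chr7:10979781-10979880: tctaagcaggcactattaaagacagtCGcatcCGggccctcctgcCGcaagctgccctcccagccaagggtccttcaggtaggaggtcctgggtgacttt
COX8A and COX8C hold 7 CG each in these 100 bp and NDUFA4 holds 3. Over the 300 bp window, COX8A has 18 and COX8C 10.

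Many respiratory chain genes face another gene. A protein-coding gene on the opposite strand had its canonical TSS within 1 kb upstream in 29 of the 98 genes (29.6%), against 9.35% of all protein-coding genes and 33.3% of the mitochondrial ribosomal protein genes. The share was 18% for the proteasome and 16.1% for the cytosolic ribosomal protein genes. Complex I had 17 of the 29 genes, complex II 2, complex III 3, complex IV 1 and complex V 6. In complex IV this was 1 of 19 genes (5.26%). NDUFB5, an accessory subunit, shared its promoter with MRPL47, a mitochondrial ribosomal protein, SDHD with TIMM8B, a chaperone of mitochondrial import, and ATP5PF, coupling factor 6 of the peripheral stalk, with GABPA, the DNA-binding subunit of a regulator of respiratory genes. The median H3K27ac promoter fold enrichment was 20.1 in the 29 genes with a divergent neighbour and 16.2 in the 61 marked genes without one, and 18.5 and 17.4 over all protein-coding genes. The window of 1 kb can also hold the promoter of the neighbour, so the highest summit may belong to either gene. With the summit nearest to the TSS, a comparison added after seeing the data, the medians were 19.6 and 15.6, and over all protein-coding genes 16.951 and 16.954. A MYC peak was present at 3 of the 29 (10.3%), namely NDUFA7, NDUFS1 and ATP5PB, against 11.3% of all protein-coding genes with such a neighbour.

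Motifs of regulators known for nuclear respiratory genes were searched in the same 300 bp on both strands of the reference. The motifs were GCATGCGC (core of the NRF1 site), CCGGAAG (ETS family, to which GABP belongs), AAGATGGC (YY1) and the E-box CACGTG, and a promoter was counted once per motif. GCATGCGC was found in 15 of the 98 genes (15.3%), against 4.26% of all protein-coding promoters. AAGATGGC was found in 16 (16.3%, against 4.01%) and CCGGAAG in 26 (26.5%, against 14%). CACGTG was found in 9 (9.18%), against 8.74%. Among promoters with an H3K27ac summit, the shares were 16.7% against 5.86% for GCATGCGC, 17.8% against 5.67% for AAGATGGC, 28.9% against 19.6% for CCGGAAG and 10.0% against 10.3% for CACGTG. The other lists differed by motif. CCGGAAG was more frequent in them, with 41% of the mitochondrial ribosomal, 40% of the proteasome and 33.3% of the cytosolic ribosomal protein genes. AAGATGGC was found in 28.2%, 12% and 12.6% of these lists, GCATGCGC in 8.97%, 4% and 6.9%, and CACGTG in 8.97%, 8% and 5.75%. With 500 bp on each side, CACGTG was found in 19.2%, 16% and 29.9% of these lists. The share in that wider window was 17.3% for the respiratory chain and 18.2% for all protein-coding genes. At least 1 of the first 3 motifs was present in 45 genes (45.9%, against 20.3% of all protein-coding genes) and at least 2 in 11 (11.2%, against 1.96%). A match is a description of the sequence and does not show that a factor is bound.

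**Figure D5:**
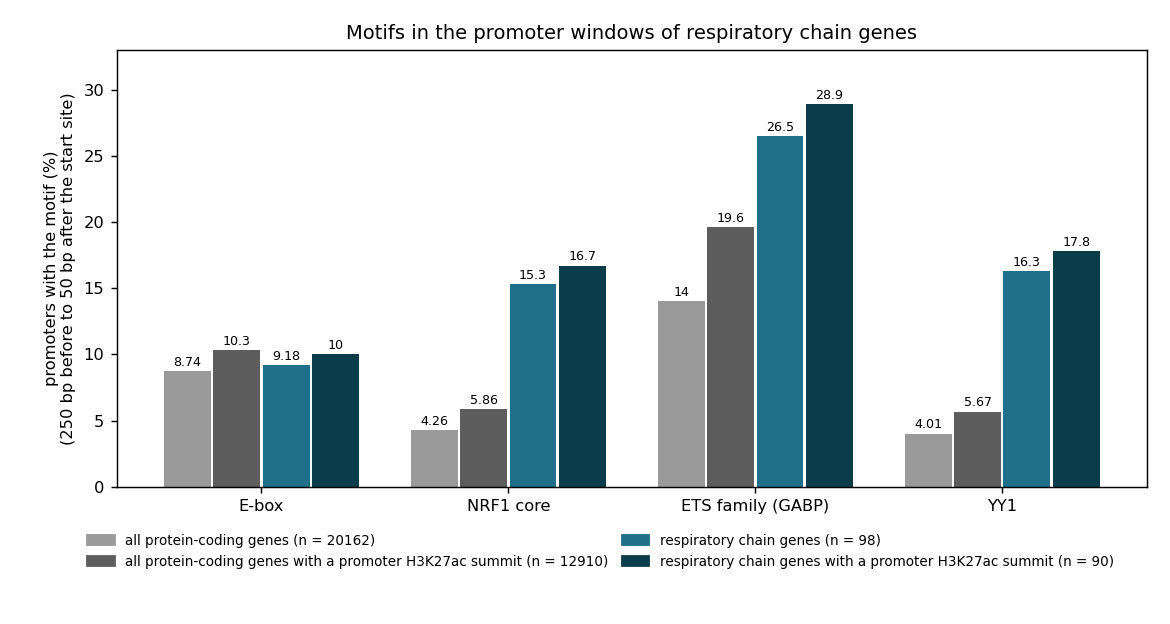
Percentage of promoters (vertical axis) with each of 4 motifs (groups of bars) from 250 bp before to 50 bp after the TSS, for all protein-coding genes, those with an H3K27ac summit within 1 kb of the TSS, the respiratory chain genes and those of them with such a summit. The NRF1 core and YY1 motifs are found in 15.3% and 16.3% of respiratory chain promoters and in 4.26% and 4.01% of all promoters, and the E-box in 9.18% and 8.74%.

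The genes with the E-box in the promoter window were NDUFA11, NDUFA7, NDUFAF5, NDUFAF6, NDUFS7, UQCR11, ATP5MC1, ATP5PB and ATP5ME. A MYC peak was present at 3 of them (NDUFA11, NDUFA7 and ATP5PB) and absent at 6, while it was present at 12% of the 1762 protein-coding genes with the motif. NDUFAF5 and NDUFS7, among the strongest H3K27ac promoters, carried CACGTG in an acetylated promoter without a MYC peak in the list.

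AAGATGGC was mostly found shortly after the TSS. In 13 of the 16 genes it lay on the strand of the gene and downstream of the TSS (81.2%, against 57.2% of all protein-coding genes with the motif), from 9 bp at NDUFAF8 to 38 bp at ATP5PO. In 12 of the 16 (75%, against 40.5%) the ATG inside the motif was the annotated start codon, so that the transcript has a very short leader. This arrangement was present in 12.2% of the respiratory chain genes and in 1.63% of all protein-coding genes. It was not counted in the other lists, and AAGATGGC itself was more frequent in the mitochondrial ribosomal protein genes (28.2%). The 12 respiratory chain genes included NDUFA3, NDUFA6, NDUFA7, NDUFA9, NDUFB8, NDUFS4 and NDUFS7 of complex I, SDHB and SDHC of complex II, UQCRC1 of complex III and ATP5PO of complex V. The sequence around the start codon is shown on the strand of the gene with the motif in capitals for 4 of them, chosen from complexes I, II and III after their sequences were seen.
NDUFA9, chr12:4758279-4758308: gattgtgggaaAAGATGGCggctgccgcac
NDUFS7, chr19:1383912-1383941: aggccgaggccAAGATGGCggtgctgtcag
SDHB, chr1:17380499-17380528: cgtcaggagccAAGATGGCggcggtggtcg
UQCRC1, chr3:48647038-48647067: actgcagctggAAGATGGCggcgtccgtgg
The H3K27ac fold enrichment of these promoters ran from 6.25 for NDUFA9 and 7.77 for SDHB to 27.8 for UQCRC1, the core protein of complex III, and 34.3 for NDUFS7.

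SDHB, NDUFS7 and ATP5ME (subunit e of ATP synthase) carried 3 of the 4 motifs in the window. The shares of all protein-coding genes with 3 of the 4, or with the motif pair named below, were not counted. NDUFS7 and ATP5ME reached 3 with CACGTG, which was about as frequent in the respiratory chain (9.18%) as over all protein-coding genes (8.74%). SDHB has GCATGCGC 200 bp upstream, CCGGAAG 128 bp upstream and AAGATGGC 10 bp downstream of the TSS, and NDUFS7 has CACGTG 187 bp upstream, GCATGCGC 73 bp upstream and AAGATGGC 17 bp downstream. The upstream matches of SDHB and NDUFS7 are given on the strand of the gene with the motif in capitals.
SDHB, chr1:17380709-17380738: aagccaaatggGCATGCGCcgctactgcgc
SDHB, chr1:17380638-17380666: cacccgggaaaCCGGAAGccgcctcccac
NDUFS7, chr19:1383707-1383736: acccgcggccccCACGTGcgcactccgatg
NDUFS7, chr19:1383822-1383851: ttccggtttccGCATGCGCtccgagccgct
GCATGCGC and AAGATGGC were both present in SDHB, NDUFS7 and NDUFA6, an accessory subunit of complex I, with H3K27ac fold enrichments of 7.77, 34.3 and 18.6. ATP5ME, with CACGTG, GCATGCGC and CCGGAAG, had 23.3.

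Processed pseudogenes carry copies of respiratory chain transcripts and were read separately. GENCODE lists 195 pseudogenes named after 52 of the genes, of which 190 are processed. A MYC peak overlapped 5 of the 195 (2.56%), against 1.93% of all 10585 processed pseudogenes, and an H3K27ac peak 8 (4.1%), against 4.1%. The MYC peaks were at ATP5MKP1 (fold enrichment 8.24), NDUFB4P12 (7.12), COX5AP2 (6.30), ATP5F1AP3 (3.83) and NDUFV2P1 (3.44). None of these 5 peaks shared a base with an H3K27ac peak or held CACGTG, and each summit was inside the pseudogene. Of their parent genes, ATP5F1A had a MYC peak, in its last exon, and ATP5MK, NDUFB4, COX5A and NDUFV2 had none. The summit window of ATP5F1AP3 on chromosome 16 had 6 copies of 90.05% identity on chromosome 9, and that of COX5AP2 on chromosome 14 had 1 copy, COX5AP1, with 94.5%.

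Other genes of the pathway were read from a list of 55 that covers cytochrome c and c1, assembly factors outside the naming rule and transcriptional regulators. An H3K27ac peak was present at 54 of them, against 75.6% of all protein-coding genes, with a median promoter fold enrichment of 19.8. A MYC peak was present at 5 (9.09%), against 6.36% of all protein-coding genes. The gene without H3K27ac was PPARGC1A, the coactivator PGC-1α, which is induced in muscle, brown fat and liver, while its relatives PPARGC1B and PPRC1 had 30.1 and 18.2. MYC peaks were found at 1 of 21 complex IV assembly genes and at none of the 20 assembly genes of the other complexes. That gene was COX20, a chaperone of the mitochondrially encoded subunit COX2, with a MYC fold enrichment of 6.38 at 121 bp from the TSS.

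Among 12 regulators, a short list chosen by symbol, 3 had a MYC peak (25%), against 6.36% of all protein-coding genes. PPRC1, a growth-regulated coactivator of the PGC-1 family, had the strongest MYC peak of the list, with a fold enrichment of 9.76 and a −log10 q of 23.5 at 614 bp from the TSS (rank 144 of 1723), and CACGTG within 50 bp of the summit. PPARGC1B had 6.81 at 616 bp, and GABPB1, the partner of GABPA, had 5.44 at 339 bp upstream. These 3 peaks overlapped H3K27ac. NRF1, GABPA, YY1, ESRRA, TFAM, TFB1M, TFB2M and POLRMT, which control nuclear respiratory genes or transcribe mitochondrial DNA, had H3K27ac at the promoter, from 9.59 (TFAM) to 36.7 (ESRRA), and no MYC peak. CYCS, which encodes cytochrome c, had a MYC peak with a fold enrichment of 6.85 at 2008 bp downstream of the TSS that shared no base with an H3K27ac peak, and a promoter H3K27ac fold enrichment of 30.5 without MYC.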

How the data were processed

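ChIP-seq of wild-type HAP1 cells comprised 4 samples with 1 library each: input, rabbit IgG, and the precipitates with the MYC and the H3K27ac antibody. Alignment to hg19 used Bowtie2 2.2.4, and narrow peaks came from MACS2 2.1.1 at its defaults, with input as the control of MYC and IgG as that of H3K27ac. Deposited peaks carry a fold enrichment, which the authors give as the ratio to control at the summit, with −log10 p and −log10 q from the same program. The handling of duplicate reads is not stated. Peak lists hold no read numbers, and the depths given in the paper were not used.

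Peaks were read as deposited and joined to GENCODE release 44 on GRCh37 by at least 1 shared bp with the gene body or 2 kb upstream. Distances were measured from the canonical TSS, or from the 5′ end of the gene for the 281 protein-coding genes without one. The lists of ribosomal, proteasome and pathway genes were chosen by symbol. The members and lists were chosen with earlier results of these data known. Named genes are those with a MYC peak, those without H3K27ac, the 5 highest and 5 lowest H3K27ac promoters, both genes of each isoform pair and pseudogenes with a MYC peak. Further genes named as examples or extremes were chosen after their values were seen. Counts and medians are given beside those over all protein-coding genes, and no test was made, since there are no replicates. Copies of the 201 bp around a MYC summit were searched with BLAST (2.17.0). Python (3.11.15), numpy (2.4.6), pysam (0.24.0), samtools (1.23.1) and matplotlib (3.10.9) were used, and the counting was tested on simulated data, where 120 of 120 planted peaks were recovered. Alternatives were a −log10 q of at least 10, other regions, distances, windows and overlaps, assignment to the nearest TSS, and subunits alone.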

Additional observations from a re-analysis of the deposited data

How the results depend on the processing

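Of 31 alternatives over 13 results, 17 gave counts within 1.5 times the main count and 14 did not or moved a median. The number of genes with a MYC peak was 8 of 98 in the main count, 3 with a −log10 q of at least 10, 3 when the nearest protein-coding TSS had to be that of the gene, 5 with the summit within 1 kb of the canonical TSS and 5 over the gene body alone. The alternatives with 3 or 5 genes admit fewer peaks by construction. With the summit within 1 kb of any annotated TSS the count was 7. For H3K27ac the count was 91 of 98, and 80 of 87 for the list called subunits alone. That list leaves out assembly factors, readthrough genes and the acyl carrier protein gene NDUFAB1, which is counted above as an accessory subunit. It keeps the inhibitor gene ATP5IF1 and the supercomplex factor gene COX7A2L. Otherwise the H3K27ac count went from 81 of 98 by the nearest TSS to 93 of 98 with 5 kb upstream. The median H3K27ac promoter fold enrichment of 18.02 moved to 16.4 with the summit nearest to the TSS (16.4015), to 16.4 within 500 bp (16.4422, against 17.3 over all protein-coding genes) and to 18.6 for subunits alone. With the summit nearest to the TSS it moved from 20.1 to 19.6 in genes with a divergent neighbour and from 16.2 to 15.6 in those without. CACGTG was counted at 1 of 8 MYC peaks within 50 bp of the summit, at 3 within 100 bp and at 4 anywhere in the peak. With a −log10 q of at least 10, MYC peaks shared with H3K27ac went from 6 of 8 to 2 of 3. Paralogs with H3K27ac went from 2 of 9 to 1 with a summit within 1 kb of the TSS. Promoters with CACGTG went from 9 to 17 with 500 bp on each side, where the share over all protein-coding genes was 18.2%. The rule of any annotated TSS, the nearest summit by divergent neighbour and the count with pseudogenes under the older symbol ATP5A1 were chosen after seeing the data. The cause of these changes was not tested. No paired analysis was possible because each antibody has 1 library and no test was made. Peak lists of 1 library without read numbers or replicates give no error, and a missing peak does not show that a factor or mark is absent.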
